A study of Mus musculus with 15 samples.

Results

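The genes described here are 10 interferon-stimulated genes of the mouse, namely the ISG15 system (Usp18, Isg15), the IFIT family (Ifit1, Ifit2, Ifit3), the oligoadenylate synthetase family and its relatives (Oas1a, Oas2, Oasl1, Oasl2) and the transcription factor gene Irf7. They were taken by symbol, as a group, out of 19057 genes on the array. Known beforehand were differences between tumors and the liver next to them, with Usp18 higher and Oasl1 and Oas2 lower in tumors. Those differences chose the group, and tumor minus liver is given below as a description without a test. All 10 genes had a probe, 17 probes in total, out of 45281 on the array.

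RNA was measured on 15 Illumina BeadChip arrays, 1 per sample, from 10 male mice of an isogenic cross of the 129S1/SvImJ and C57Bl/6J strains (129/B6). WD SW tumors were liver tumors of 5 mice that had been given a high-fat, high-carbohydrate Western diet with fructose-glucose water (WD SW) for 52 weeks since young adulthood. WD SW livers were non-tumor liver lying next to those tumors in the same 5 mice (4N, 4R, 5N, 5R and 6L). CD NW livers came from 5 other mice (1L, 1R, 2L, 2N and 3N) on chow diet with normal water for the same time. No group carried a transgene or a gene deletion, and every sample was a piece of whole tissue. Because each of these WD SW livers also carried tumors, an effect of diet and one of tumor bearing cannot be told apart against CD NW livers.

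Type I interferons are cytokines that cells release when they sense foreign or misplaced nucleic acid. They bind a receptor made of IFNAR1 and IFNAR2, whose kinases activate transcription factors, and these enter the nucleus with IRF9 and bind interferon-stimulated response elements near the genes described here. The products limit viruses and also tune the signal itself: USP18 dampens the receptor, and IRF7 drives further interferon transcription. In the liver, hepatocytes, Kupffer cells and other immune cells can all respond to interferon.

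The response element has a core that can be looked for in promoter sequence. Windows of 300 bases, with 250 before and 50 after each gene's start, were read from RefSeq promoters of build GRCm38.p6. An entry was there for 8 of the 10 genes, all but Usp18 and Oas2. The core was searched as GAAANNGAAA, or TTTCNNTTTC on the other strand, with overlapping matches counted. It was found in the windows of 4 genes, Isg15, Ifit1, Ifit3 and Oas1a, and in 3.44% of all 32851 promoters. The window of Isg15 held 3 overlapping matches, which start 78, 72 and 66 bases before the gene's start, and that of Ifit3 held 2, which start 156 and 122 bases before it. Ifit1 held 2 matches (104 and 85 bases before the start) and Oas1a held 2 overlapping ones (20 and 14 bases before it). No match lay in the windows of Ifit2, Oasl1, Oasl2 or Irf7, which says only that these letters are not in these windows. Promoters of 4 genes are shown 5′ to 3′ on the gene's strand, with matches in capitals, as examples with the core (Isg15, Ifit3) and without it (Oasl1, Irf7). A link between the core and a gene's levels was not tested. A match is a description of the letters and no evidence of binding.
Isg15, chr4:156200769-156201068, minus strand: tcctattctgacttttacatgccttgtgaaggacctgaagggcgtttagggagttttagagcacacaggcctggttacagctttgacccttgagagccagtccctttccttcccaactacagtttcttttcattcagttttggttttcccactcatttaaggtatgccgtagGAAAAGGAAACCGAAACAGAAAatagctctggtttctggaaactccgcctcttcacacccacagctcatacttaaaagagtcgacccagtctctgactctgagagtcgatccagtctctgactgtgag
Ifit3, chr19:34583279-34583578, plus strand: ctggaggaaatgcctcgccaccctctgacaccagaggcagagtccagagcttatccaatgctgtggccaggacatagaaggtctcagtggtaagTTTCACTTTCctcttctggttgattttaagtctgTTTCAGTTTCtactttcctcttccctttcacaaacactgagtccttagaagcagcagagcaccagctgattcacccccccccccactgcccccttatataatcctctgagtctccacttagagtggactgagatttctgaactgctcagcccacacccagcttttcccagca
Oasl1, chr5:114922990-114923289, plus strand: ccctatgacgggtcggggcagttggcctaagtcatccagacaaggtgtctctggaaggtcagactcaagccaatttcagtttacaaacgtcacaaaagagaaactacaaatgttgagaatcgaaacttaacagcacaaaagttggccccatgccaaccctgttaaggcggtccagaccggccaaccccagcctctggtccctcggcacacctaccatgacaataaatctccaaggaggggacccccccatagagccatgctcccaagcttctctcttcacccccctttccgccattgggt
Irf7, chr7:141266375-141266674, minus strand: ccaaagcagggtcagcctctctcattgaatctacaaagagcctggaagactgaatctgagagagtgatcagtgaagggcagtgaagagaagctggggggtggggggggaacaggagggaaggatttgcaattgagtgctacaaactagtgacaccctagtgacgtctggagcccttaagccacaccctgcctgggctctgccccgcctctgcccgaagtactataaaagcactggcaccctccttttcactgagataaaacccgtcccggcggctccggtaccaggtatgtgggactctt

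Levels are log2 probe signals after background correction and quantile normalization over all 15 arrays, so that a difference of 1 is a doubling of signal. A probe was above background on an array when fewer than 1% of 1526 odorant, vomeronasal and trace amine receptor probes reached its signal. Of the 10 genes, 6 were above background on all 15 arrays (Usp18, Isg15, Ifit3, Oasl1, Oasl2 and Irf7) and 8 on at least 1. Ifit1 and Oas1a, on 1 probe each, were not above background on any array. Each array had 12278 to 15814 probes above background. All 9 hepatocyte markers looked for were above background in each of the 3 groups, with summed signals of 105500 to 126300 in tumors, 112900 to 130900 in WD SW livers and 122500 to 147800 in CD NW livers. The WD SW liver of mouse 5R lay part of the way towards its tumor. Over the 100 genes higher and the 100 lower in tumors that had the smallest p in the other mice, its linear signal lay, at the median, at 0.429 and 0.473 of the distance between the other WD SW livers and its own tumor, while the 4 other mice lay between -0.185 and 0.338. Results that rest on mouse 5R are therefore also given without it.

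**Figure D1:**
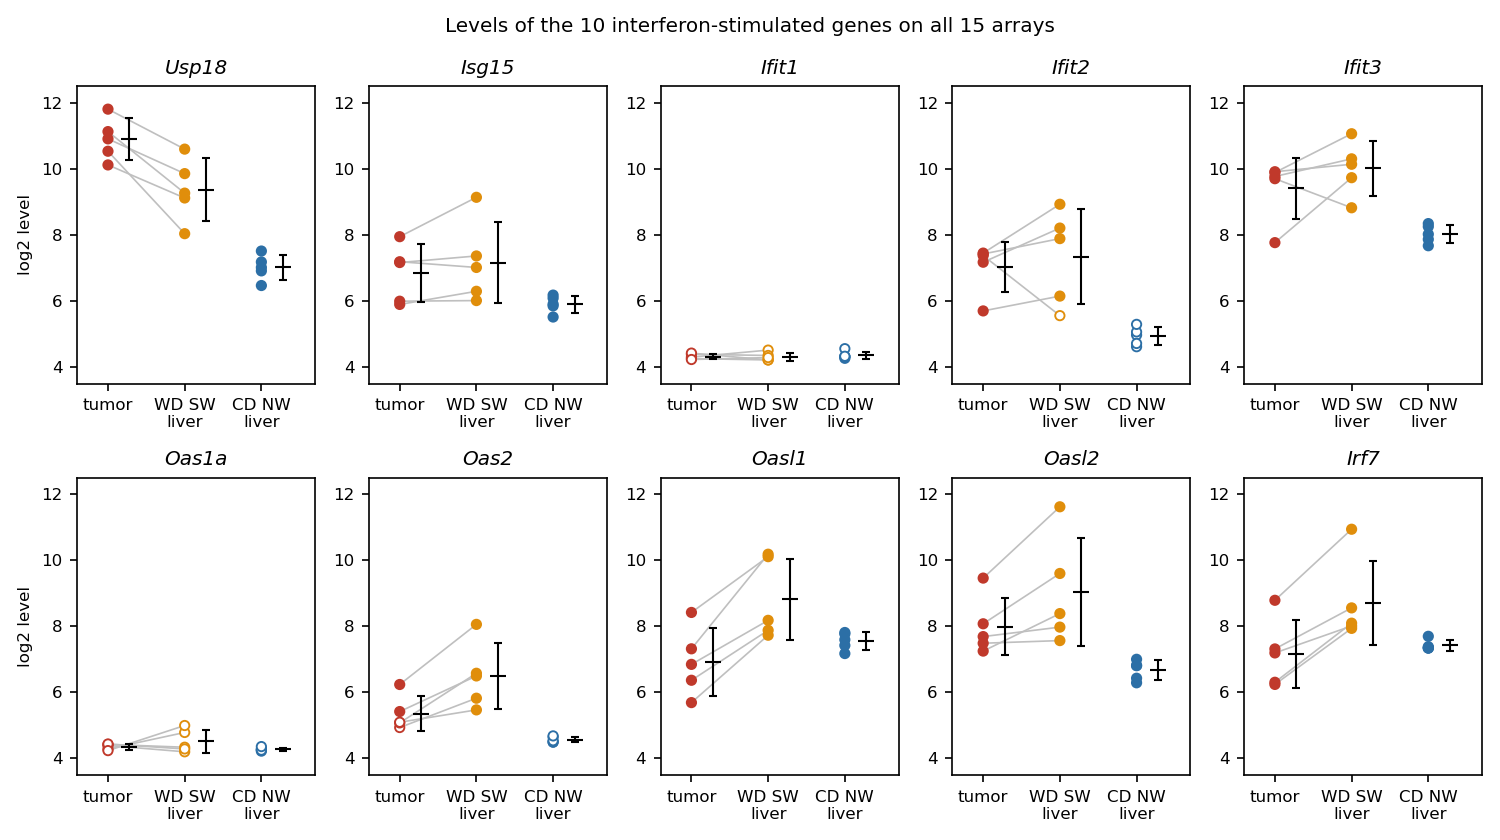
Log2 level of each of the 10 genes on 15 arrays. Points are single arrays of WD SW tumors (red), WD SW livers (orange) and CD NW livers (blue), open where the probe was not above background, gray lines join tumor and liver of 1 mouse, and bars beside the points give the mean and SD (n = 5). Usp18 was highest in tumors, at 10.89 on average, while Oasl1, Oas2, Oasl2 and Irf7 lines rise from each tumor to its adjacent liver.

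Usp18 encodes the protease that takes ISG15 off its target proteins, and its product also blocks signaling at the IFNAR2 subunit of the interferon receptor. Its gene lies on chromosome 6. The log2 level of Usp18 was 10.11, 10.53, 11.12, 10.90 and 11.80 in the tumors of mice 4N, 4R, 5N, 5R and 6L. In the adjacent WD SW livers of these mice, in the same order, it was 9.11, 8.03, 9.26, 9.85 and 10.59. In the CD NW livers of mice 1L, 1R, 2L, 2N and 3N it was 7.51, 7.01, 7.18, 6.46 and 6.91. Every tumor and every WD SW liver thus lay above every CD NW liver, and only the WD SW liver of mouse 6L reached into the range of the tumors. The tumor of each mouse lay above its own liver, by 1.0, 2.49, 1.86, 1.05 and 1.21 on the log2 scale. The mean difference was 1.52 ± 0.64 (SD, n = 5 mice), a 2.87-fold higher level, and 1.64 without mouse 5R. The second Usp18 probe was dimmer, above background in 5 of 5 tumors, 3 of 5 WD SW livers and no CD NW liver. In bulk tissue, fewer cells of a type and less RNA per cell cannot be told apart.

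Isg15 encodes the ubiquitin-like modifier that USP18 removes, and lies on chromosome 4. Its log2 level was 5.89, 5.99, 7.16, 7.18 and 7.94 in the tumors. It was 6.29, 6.01, 7.36, 7.01 and 9.13 in the adjacent livers of the same mice, and 6.08, 6.17, 5.85, 5.90 and 5.51 in CD NW livers. Isg15 was therefore high in mice 5N, 5R and 6L in both tissues, and within the range of CD NW livers or close to it in mice 4N and 4R. Tumor minus liver was -0.40, -0.02, -0.20, 0.17 and -1.19, with a mean of -0.33 ± 0.53 (SD, n = 5 mice), so Isg15 did not follow Usp18 upward in tumors. Without mouse 5R, the 1 mouse with a difference above 0, the mean was -0.45.

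The IFIT proteins bind foreign RNA and hinder its translation, and their genes lie together on chromosome 19. Ifit1 levels, at 4.21 to 4.55 over the 15 arrays, were not well above background. Ifit2 had log2 levels of 7.37, 5.70, 7.42, 7.17 and 7.45 in tumors, of 5.55, 6.14, 7.88, 8.20 and 8.92 in adjacent livers and of 4.97, 5.06, 4.61, 4.71 and 5.29 in CD NW livers. It was above background in 5 of 5 tumors, in 4 of 5 WD SW livers and in no CD NW liver. Ifit3 had log2 levels of 9.70, 7.76, 9.76, 9.91 and 9.88 in tumors, of 8.82, 9.73, 10.30, 10.13 and 11.06 in adjacent livers and of 8.25, 8.34, 7.86, 7.67 and 8.02 in CD NW livers. The 2 genes shared their lowest samples: the tumor of mouse 4R was the lowest tumor for both, and the liver of mouse 4N was the lowest WD SW liver for both. Tumor minus liver was 1.82, -0.45, -0.47, -1.03 and -1.48 for Ifit2 (mean -0.32 ± 1.27, SD, n = 5 mice) and 0.88, -1.96, -0.53, -0.23 and -1.17 for Ifit3 (mean -0.60 ± 1.06). Both were higher in tumor than in liver in mouse 4N and lower in the 4 other mice, and the spread between mice was larger than the mean for each. Without mouse 5R the mean was -0.14 for Ifit2 and -0.70 for Ifit3. A near-identical copy of Ifit3, Ifit3b, lies beside it, and whether the Ifit3 probes read both was not tested.

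The oligoadenylate synthetases make short oligoadenylate messengers when they meet double-stranded RNA, and their genes and those of the OASL relatives lie on chromosome 5. Oas1a, which has close copies in the mouse, lay at 4.20 to 5.0 on the 15 arrays and was not well above background. Oas2 had log2 levels of 4.94, 5.08, 5.42, 5.10 and 6.24 in tumors, of 5.82, 6.58, 6.50, 5.47 and 8.06 in adjacent livers and of 4.49, 4.50, 4.65, 4.54 and 4.68 in CD NW livers. It was above background in 2 of 5 tumors, in 5 of 5 WD SW livers and in no CD NW liver. The tumor lay below its liver in all 5 mice, by a mean of 1.13 ± 0.56 on the log2 scale (SD, n = 5 mice), and the 2 tissues overlapped only through the tumor of mouse 6L. Since 3 tumors were not well above background, the size of this difference depended on how background was treated, and it was -0.54 with no background correction.

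Oasl1 encodes a synthetase relative without the enzyme activity, known in the mouse to hold back translation of the Irf7 message. Its log2 level was 5.69, 6.37, 8.42, 6.85 and 7.32 in tumors. It was 7.73, 7.88, 10.11, 8.18 and 10.18 in the adjacent livers and 7.77, 7.81, 7.59, 7.17 and 7.42 in CD NW livers. Mice 5N and 6L had livers well above the rest, while 4 of 5 tumors lay below most or all CD NW livers. Tumor minus liver was -2.04, -1.51, -1.69, -1.33 and -2.86, with a mean of -1.89 ± 0.60 (SD, n = 5 mice) or a 3.70-fold lower level, and -2.02 without mouse 5R. The second probe of Oasl1 was lower in 5 of 5 tumors as well, with a mean of -1.45, and the third probe was above background in only 2 WD SW livers.

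Oasl2 encodes an OASL protein that, in the mouse, does make oligoadenylates. Its log2 level was 7.49, 7.69, 8.07, 7.25 and 9.46 in tumors, 7.57, 7.97, 9.60, 8.38 and 11.61 in adjacent livers and 6.43, 6.81, 7.0, 6.29 and 6.81 in CD NW livers. Oasl2 thus differed from Oasl1 in that every tumor lay above every CD NW liver. Tumor minus liver was -0.08, -0.29, -1.52, -1.14 and -2.16 (mean -1.04 ± 0.86, SD, n = 5 mice), below 0 in every mouse but close to it in mice 4N and 4R. Of its dimmer probes, the second was above background in 1 tumor and 2 WD SW livers and the third on no array.

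Irf7 encodes the transcription factor that drives type I interferon genes once it is phosphorylated, and lies on chromosome 7. Its log2 level was 6.24, 6.31, 7.31, 7.19 and 8.79 in tumors, 7.94, 8.09, 8.56, 8.01 and 10.94 in adjacent livers and 7.34, 7.35, 7.70, 7.34 and 7.38 in CD NW livers. Every WD SW liver lay above every CD NW liver, and 4 of 5 tumors lay below every CD NW liver, those of mice 5N and 5R by little. Tumor minus liver was -1.70, -1.79, -1.24, -0.82 and -2.15, with a mean of -1.54 ± 0.52 (SD, n = 5 mice) or a 2.90-fold lower level. With both arrays of mouse 6L left out, the mean difference was -1.39.

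Of the 8 genes above background on some array, 1 (Usp18) was higher in tumor than in adjacent liver in all 5 mice and 4 (Oas2, Oasl1, Oasl2 and Irf7) were lower in all 5. Among all 8674 genes that passed the filter in this comparison, 11.5% were higher and 12.9% lower in all 5 mice. As this contrast chose the genes, nothing is read from these counts. Over all 10 genes, Ifit1 and Oas1a at their background levels included, the median difference was -0.47, beside 0.00 over all genes tested. Without mouse 5R the mean differences were 1.64 for Usp18, -2.02 for Oasl1, -1.72 for Irf7, -1.32 for Oas2 and -1.01 for Oasl2.

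**Figure D2:**
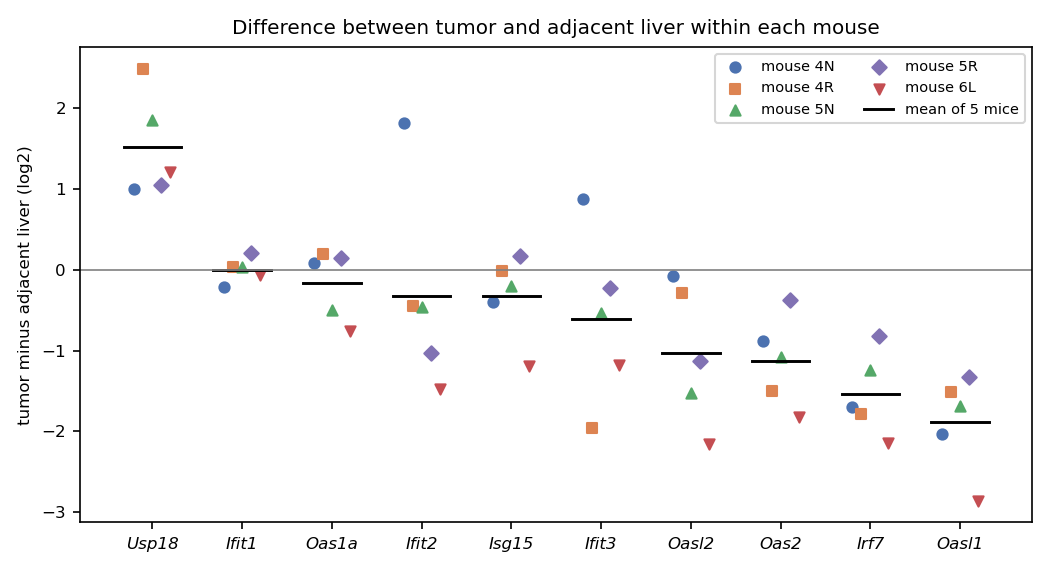
Tumor minus adjacent liver, on the log2 scale, for each of 5 mice (symbols) and their mean (line), with genes ordered by the mean. Usp18 lay between 1.0 and 2.49 in the 5 mice, and Oasl1, at the other end, between -2.86 and -1.33.

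The same mice often lay highest or lowest across these genes, which share the arrays and are not separate evidence. The liver of mouse 6L was the highest of the 5 WD SW livers for 8 of 8 genes above background, and its tumor the highest tumor for 6 of 8. Mouse 4N had the lowest WD SW liver for 5 of 8 genes and the lowest tumor for 5 of 8. For Ifit2 and Ifit3 the lowest tumor was that of mouse 4R. Signals of macrophage genes shared the high end of this ranking but not the low end. A list of 12 Kupffer cell and macrophage markers, 11 with a probe, had a summed signal of 1931 to 5983 in tumors, 4338 to 21330 in WD SW livers and 1163 to 2048 in CD NW livers. The highest sum, 21330, was that of the liver of mouse 6L. The lowest liver and tumor sums, 4338 and 1931, were those of mouse 5R, while mouse 4N had 6836 in liver and 4693 in tumor. Of the 11 markers, 9 were above background on every tumor and 9 on every WD SW liver, with Cd5l above background in no group. The sum was lower in tumor than in liver in all 5 mice, as were Oas2, Oasl1, Oasl2 and Irf7, but not Usp18. The same held for sums of 7 endothelial markers, at 430.2 to 2116 in tumors, 906.7 to 5002 in WD SW livers and 2393 to 4907 in CD NW livers. Of 9 monocyte and neutrophil markers, 7 had a probe, with a sum of 214.4 to 2076 in tumors, 522.3 to 2955 in WD SW livers and 178.1 to 297.1 in CD NW livers, and Ccr2 and Cxcr2 were above background in no group. This sum, too, was lower in tumor in all 5 mice. Sums of conventional dendritic, T and NK, B and plasma, stellate and cholangiocyte markers were each lower in tumor in 4 of 5 mice. In tumors, 2 of 7 conventional dendritic, 5 of 9 T and NK and 1 of 4 B and plasma markers were above background on any array. None of these markers was above background on every tumor, so their sums lay largely at background and are no measure of cell number. Sums of hepatocyte and erythroid markers were lower in 3 and 2 of 5 mice. Plasmacytoid dendritic cells are strong producers of type I interferon. Of 8 of their markers, 7 had a probe, and Ccr9, Klk1 and Pacsin1 were above background on no array, with a sum of 1378 to 3049 in tumors, 1025 to 1655 in WD SW livers and 1004 to 1129 in CD NW livers. That sum was higher in tumor than in liver in all 5 mice, as Usp18 was. Only 2 of the 7 markers were above background in either group of livers and 4 in tumors, with Cox6a2 and Spib in tumors only. The sum thus rests on few markers and is no measure of the number of these cells. The part of these cells in the levels of the interferon-stimulated genes was not tested.

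To ask whether these genes were raised with the diet, the 5 WD SW livers were tested against the 5 CD NW livers with limma, and p-values were adjusted over all 8429 genes tested. The WD SW livers are those of the contrast that chose the genes. A high liver would help both for genes chosen as lower in tumors (Oasl1 and Oas2), and would count against the choice of Usp18. Of the 7 genes tested, 4 rose (Usp18, Ifit3, Oas2 and Oasl2) and none fell, beside 6.07% of all genes tested called higher and 3.7% called lower. Oas2 entered the test only through the WD SW livers and so had to differ. Usp18 had a log2 fold change of 2.36 (SE 0.39, adjusted p = 0.00462 by limma), a 5.12-fold higher level. Ifit3 was 3.94-fold higher (log2 fold change 1.98, SE 0.33, adjusted p = 0.00476) and the groups did not overlap. Oas2, with no CD NW liver above background, was at least 2.02-fold higher (adjusted p = 0.0114), a bound that rests on the background correction: the log2 fold change was 0.81 with none (adjusted p = 0.0459) and 0.82 on the authors' processed values. Oasl2 was 5.13-fold higher (log2 fold change 2.36, SE 0.63, adjusted p = 0.0366), and this call was lost when any of the 5 CD NW livers, or mouse 5N of the WD SW livers, was left out (adjusted p = 0.0579 to 0.0821), with no background correction (0.0664), with a correction that used no control probes (0.0558) and on the authors' processed values (0.0658). With the WD SW liver of mouse 6L left out, its log2 fold change was 1.71 (adjusted p = 0.0156). "At least" marks a bound: the dim group was set no lower than the dimmest detectable signal of each of its arrays, and its mean was then compared with that of the bright group. Every such bound, here and below, rests on the background correction.

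The 3 genes tested that were not called in WD SW livers all had intervals above 0 and an adjusted p over the threshold. The log2 fold change was 1.26 for Isg15 (95% interval 0.20 to 2.31, adjusted p = 0.125 by limma), 1.26 for Oasl1 (0.22 to 2.30, adjusted p = 0.121) and 1.28 for Irf7 (0.22 to 2.35, adjusted p = 0.122). For Irf7, mouse 6L decided the call: without its liver the log2 fold change was 0.73 and the adjusted p was 0.0186. Ifit2 did not enter the test, as it was above background in 4 of 10 arrays, and its level was at least 3.66-fold higher in WD SW livers than in CD NW livers. With mouse 5R left out of the WD SW livers, the same 4 genes were called, with an adjusted p of 0.0375 for Oasl2. Over all 10 genes the median log2 fold change was 1.60, beside -0.05 over all genes tested.

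Tumors were set against CD NW livers in the same way, over 8352 genes. Of the 7 genes tested, 4 rose (Usp18, Ifit2, Ifit3 and Oasl2) and none fell, beside 12.3% of all genes tested called higher and 12.8% called lower. These tumor arrays are also those of the contrast that chose the genes, and the CD NW livers are shared with the comparison above. A high tumor would help both the choice of Usp18 and its call here. Ifit2 entered the test only through the tumors and so had to differ. Usp18 had a log2 fold change of 3.88 (SE 0.29, 95% interval 3.25 to 4.50, adjusted p = 3.81e-06 by limma), a 14.7-fold higher level. The log2 fold change of Usp18 was 3.25 with no background correction, 3.18 on the authors' processed values and 2.87 with its probes averaged. Ifit2 was at least 2.93-fold higher (adjusted p = 0.000554), a bound that rests on the background correction: the log2 fold change was 0.97 with none (adjusted p = 0.00107) and 0.98 on the authors' processed values. Ifit3 was 2.60-fold higher (log2 fold change 1.38, SE 0.36, adjusted p = 0.0167), although the tumor of mouse 4R lay within the CD NW livers. Oasl2 was 2.50-fold higher (log2 fold change 1.32, SE 0.35, adjusted p = 0.0177), and the call ended in 1 fit of all 15 arrays (adjusted p = 0.122).

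Isg15, Oasl1 and Irf7 were not called in tumors. Isg15 had a log2 fold change of 0.93 (95% interval 0.16 to 1.70, adjusted p = 0.0736 by limma), and it passed without the tumor of mouse 4N (adjusted p = 0.0253), without that of mouse 4R (0.0367) and with array weights (0.0216). Oasl1 had a log2 fold change of -0.63 (95% interval -1.50 to 0.25, adjusted p = 0.278), and it passed only without the tumor of mouse 5N (-1.0, adjusted p = 0.0334). Irf7 had a log2 fold change of -0.25 (95% interval -1.11 to 0.61, adjusted p = 0.673). Oas2 was not tested here, as it was above background in 2 of 10 arrays. Over all 10 genes the median log2 fold change was 0.86, beside -0.04 over all genes tested.

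**Figure D3:**
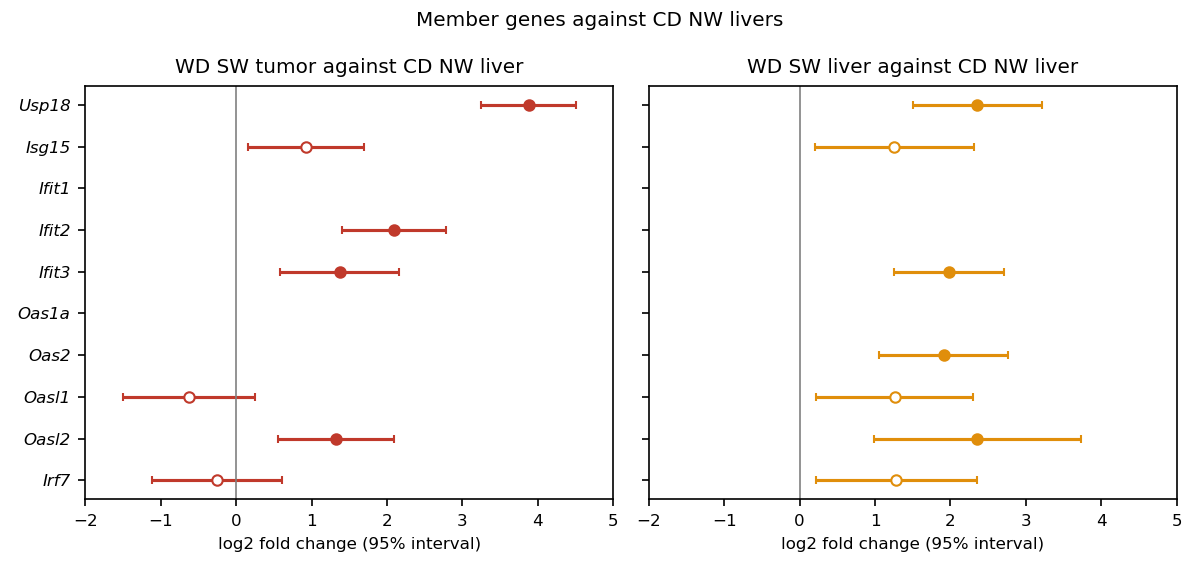
Log2 fold change with 95% interval against CD NW livers, for tumors (left) and WD SW livers (right), 5 arrays per group. Filled points passed an adjusted p of 0.05 by limma, genes without a point were not tested, and Ifit2 (left) and Oas2 (right) are drawn from signals that in CD NW livers were not above background. Usp18 reached 3.88 in tumors and 2.36 in WD SW livers, and Oasl1 and Irf7 lay on the negative side in tumors (-0.63 and -0.25) and at 1.26 and 1.28 in WD SW livers.

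Other genes of the pathway were taken from a list of 101 symbols, of which 89 had a probe. Between WD SW livers and CD NW livers 58 were tested, 13 rose, none fell and 45 were not called (median log2 fold change 0.50, beside -0.05 over all genes tested), where 6.07% of all genes tested were called higher and 3.7% lower. Between tumors and CD NW livers 58 were tested, 15 rose, 3 fell and 40 were not called (median 0.32, beside -0.04), where 12.3% of all genes tested were called higher and 12.8% lower. Of those that rose, Oas1g in both comparisons and Ifih1 in tumors entered the test only through the higher group and so had to differ. Between tumors and WD SW livers 61 were tested. In the main fit, which did not pair tumor and liver of a mouse, limma called none, beside 4.01% of all genes tested. At an unadjusted p under 0.05 the list had 8, beside 19.3% of all genes tested. With the mouse as a block, so that each tumor was set against its own liver, 1 rose and 11 fell. Of all 8674 genes tested, 383 rose and 524 fell in that paired fit, 10.5% in total. In that comparison 45 of the 61 differences were negative and 16 positive (median -0.26, beside 0.00).

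Among ligands and receptors, 4 of 9 genes were tested. The interferon gamma receptor gene Ifngr1 rose in tumors (log2 fold change 2.05, adjusted p = 6.13e-05 by limma) and in WD SW livers (1.30, adjusted p = 0.0025), both against CD NW livers. Il10rb, a receptor subunit shared by IL-10 and type III interferons, rose by 0.75 in tumors (adjusted p = 0.0316) and by 1.29 in WD SW livers (adjusted p = 0.0192). Ifnar2, the type I receptor subunit that USP18 binds, had log2 fold changes of -0.26 in tumors (adjusted p = 0.453) and -0.12 in WD SW livers (adjusted p = 0.817). In the paired fit of tumors and their own livers Ifngr1 was the single gene that rose, by 0.75 (adjusted p = 0.0205 with the mouse as a block, 0.0784 without it).

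Of the genes of signal transduction, Irf8, a transcription factor of myeloid cells, rose in tumors (log2 fold change 0.80, adjusted p = 0.0198 by limma) and in WD SW livers (1.67, adjusted p = 0.00784) against CD NW livers. Irf5, a relative of Irf7 that acts downstream of Toll-like receptors, fell in tumors against CD NW livers (-1.28, adjusted p = 0.00371) and, with the mouse as a block, against their own livers (-1.01, adjusted p = 0.0142). Ptpn6, a phosphatase gene of blood cells, rose in WD SW livers (1.02, adjusted p = 0.0153). Among sensors, Ifih1, which encodes the double-stranded RNA sensor MDA5, was at least 1.51-fold higher in tumors than in CD NW livers (adjusted p = 0.00145), having entered the test only through the tumors. None of the 8 sensors and adaptors tested passed in WD SW livers, beside 9.78% of all genes tested. At an unadjusted p under 0.05 there was 1, beside 26.2% of all genes tested. With 8 genes, nothing is read from these counts. Dhx58, which encodes the sensor LGP2, was lower in 5 of 5 tumors than in their livers (-1.14, adjusted p = 0.00563 with the mouse as a block, 0.266 without it).

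Of 4 genes of enzymes that attach ISG15, the reverse of what USP18 does, 3 were tested. In tumors against CD NW livers, where 12.3% of all genes tested were called higher, the 3 that rose were Ube2l6, the conjugating enzyme gene (log2 fold change 1.21, adjusted p = 0.00498 by limma), Uba7, the activating enzyme gene (1.01, adjusted p = 0.0356), and Trim25, a ligase gene (0.37, adjusted p = 0.0295). In WD SW livers, where 6.07% of all genes tested were called higher, none of these 3 passed, although Uba7 had the same fold change. The log2 fold changes there were 0.51 for Ube2l6 (adjusted p = 0.414 by limma), 1.01 for Uba7 (adjusted p = 0.0743) and 0.29 for Trim25 (adjusted p = 0.242). Between tumors and their livers Ube2l6 was higher in 5 of 5 mice (0.70, adjusted p = 0.0638 with the mouse as a block). Of the other synthetase genes only Oas1g was tested, which entered through the WD SW groups and was at least 1.71-fold higher in tumors (adjusted p = 0.000752) and at least 2.55-fold higher in WD SW livers (adjusted p = 0.0256) than in CD NW livers. None of the other IFIT genes passed the filter.

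Among the other effectors, Gbp2 and Gbp3, guanylate-binding proteins that respond strongly to interferon gamma, rose in both. In tumors the log2 fold changes were 2.82 for Gbp2 (adjusted p = 0.00253 by limma) and 2.36 for Gbp3 (adjusted p = 0.0049), and in WD SW livers they were 2.86 (adjusted p = 0.00388) and 2.90 (adjusted p = 0.0025). Cxcl9, a chemokine gene driven by interferon gamma, rose by 3.59 in tumors (adjusted p = 0.000447) and by 3.26 in WD SW livers (adjusted p = 0.00643). Trim30a rose by 1.83 in WD SW livers (adjusted p = 0.00453) and, with the mouse as a block, was lower in tumors than in their livers (-0.97, adjusted p = 0.028). Mx2, an antiviral GTPase gene, and Trafd1, a feedback regulator, were, as Irf7 was, lower in all 5 tumors than in their livers (-0.87, adjusted p = 0.0326, and -0.58, adjusted p = 0.0296, with the mouse as a block). Parp14, an ADP-ribosyltransferase gene named after its value was seen, had the smallest p of the effectors in that fit (-0.90, adjusted p = 0.00879) and was lower in 5 of 5 tumors.

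**Figure D4:**
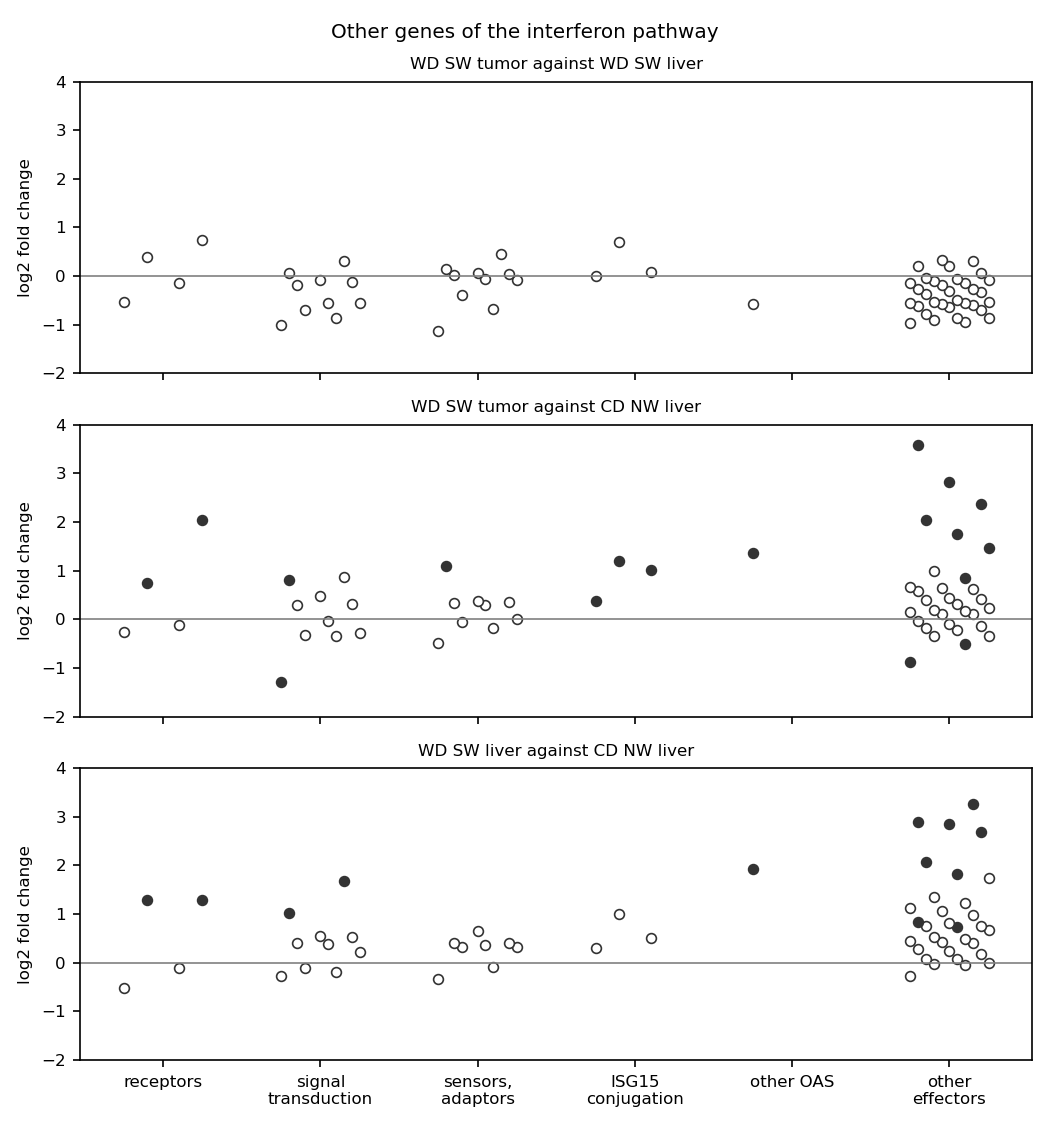
Log2 fold change of the other pathway genes, grouped by role, in 3 comparisons, with 5 arrays per group. Each point is a gene, filled where the adjusted p was under 0.05 by limma. Against CD NW livers 15 rose and 3 fell in tumors and 13 rose in WD SW livers, while no point is filled for tumors against WD SW livers, a fit without the mouse as a block.

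The genes most like each member over the 15 arrays were found by Pearson correlation of log2 levels among 8981 genes. These correlations share the arrays and the differences between the 3 groups, and are descriptions without a test. Usp18 was most like Plscr1, a phospholipid scramblase gene induced by interferon (r = 0.971), followed by Lrrc75a (0.965) and Ly6d (0.964). Oas2 was most like Tlr7, a sensor of single-stranded RNA (0.979), Ifi207 (0.977) and P2ry13 (0.969). Oas2 was above background in only 2 of 5 tumors and no CD NW liver, and Tlr7 in 2 of 5 tumors and 3 of 5 WD SW livers. Many of their 15 values thus lay at background, which limits what these r can say. Oasl2 was most like H2-DMb1, H2-DMb2 and H2-DMa, which load peptides on MHC class II (r = 0.979, 0.977 and 0.975). Irf7 and Isg15 had Parp14 in common, with r = 0.930 for Irf7 and 0.920 for Isg15. Ifit3 was most like the guanylate-binding protein genes Gbp3 (0.914) and Gbp2 (0.907), Ifit2 most like Tnip1 (0.961), and Oasl1, with the lowest first correlation, most like Arpc4 (0.898).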

How the data were processed

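Total RNA of 15 samples was measured on Illumina mouse BeadChips, 1 array each. The deposited signal intensity of each probe is linear and was not normalized by the authors. Their processed intensity values, used as an alternative, are linear too, and the sources used here do not say how they were made. The arrays' BeadChip positions were not among the files used, so batches could not be examined.

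Values were computed from the deposited intensity with limma 3.58.1 in R 4.3.3 by neqc (offset 16, robust), which corrects background, quantile normalizes over 15 arrays and takes log2. Control probes were not used here, and 1526 probes of vomeronasal, odorant and trace amine receptors stood in for them. The detection p was the share of these at or above a probe's signal. A probe was tested if it was under 0.01 on at least 5 of 10 arrays, and the brightest kept probe stood for its gene. Symbols came through gene identifiers from a RefSeq table of GRCm38.p6. Of 45281 probes, 34885 had 1 symbol (34807 matched by identifier), 18 had several genes and 10378 had none.

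Groups of 5 were compared with lmFit and eBayes (trend), with p-values adjusted by Benjamini-Hochberg over all genes tested and a threshold of 0.05. Tumor and liver came from the same mice, and the main fit did not pair them. As a check, the deviations of each tumor from its group mean were correlated across genes with those of its own liver, which gave r = 0.189 (4N), 0.261 (4R), 0.442 (5N), 0.494 (5R) and 0.520 (6L). No other liver reached such an r with that tumor.

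The members and lists were chosen with earlier results of these data known. Named are all 10 members, of the pathway list up to 3 genes per role and comparison with the smallest adjusted p in the fit without the mouse as a block, all tested genes of the ISG15 conjugation, synthetase and IFIT lists, and the 3 genes most like each member. Not all of them are given. The fits were tested on simulated arrays. Alternatives were other background corrections, median scaling, the authors' values, other filters, averaged probes, 1 fit of 15 arrays, array weights, the mouse as a block and each array left out. The number of arrays limits the precision. Figures were drawn with matplotlib 3.10.9.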

Additional observations from a re-analysis of the deposited data

Results flagged for a closer look

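In 30 sets of 5 values (10 genes in 3 groups), 4 values stood far from the rest of their group, with a gap to the nearest value over 0.71 of the group's range. Sets of independent values pass this limit about 1 time in 20. The 30 sets share the same arrays, so the 4 values are not read against that rate. The tumor of mouse 4R was low for both IFIT genes above background, with a log2 level of 5.70 for Ifit2 (nearest tumor 7.17) and 7.76 for Ifit3 (nearest tumor 9.70). The WD SW liver of mouse 6L was high for Irf7, at 10.94 (nearest liver 8.56), and the CD NW liver of mouse 2L was high for Irf7 at 7.70 (nearest 7.38), a gap that is wide only against the narrow range of that group. What set these arrays apart was not tested.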

How the results depend on the processing

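Among the 10 genes, no called or paired direction that was larger than its SD turned under any alternative. Leaving out whole pairs, chosen after seeing the data (both arrays of 1 mouse at a time), turned none of the 8 mean differences of tumor minus liver, while leaving out 1 array of a pair or weighting arrays gave Ifit2 up to 0.07 and Isg15 up to 0.17. The calls of Usp18 and Ifit3 held in each alternative. Those of Oas2 and Ifit2 also held where tested, but as these genes entered through 1 group this is no sign of stability, and detection on all 10 arrays left them untested. With each array left out in turn, 3 to 5 genes were called higher in WD SW livers and 4 to 5 in tumors, both against CD NW livers. Likewise, 4 to 6 genes were lower in every tumor than in its liver. As the mouse of the array left out was not counted, that number could not fall below 4 and is no sign of stability. It was 3 with median scaling and 3 with detection on all 10 arrays. Counts of other pathway genes called, again with 1 array left out, were 11 to 17 for tumors and 9 to 16 for WD SW livers against CD NW livers, and 0 to 1 for tumors against WD SW livers. In the last comparison the count was 0, and it was 2 in 1 fit of all 15 arrays, 1 with array weights and 12 with the mouse as a paired block. Detection on all 10 arrays left 8 pathway genes called in WD SW livers. Over all genes, 824 were called in WD SW livers against CD NW livers, 499 with detection on all 10 arrays and 475 to 964 with 1 array left out. In tumors 2099 were called against CD NW livers (1511 to 2254). Against WD SW livers 348 were called, 221 with detection on all 10 arrays, 681 in 1 fit of all 15 arrays, 552 with array weights, 907 with the mouse block, 154 to 468 with 1 array left out, and 164, 90, 68 and 196 without both arrays of mouse 4N, 4R, 5N or 6L. The cause was not tested. Median scaling in place of quantiles moved the median of all genes in tumors against CD NW livers to 0.14, against -0.04, and the share of called genes that were higher to 70.6%, against 49.1%. In WD SW livers that share was 81.3%, against 62.1%. Under it, 1 pathway gene (Irf5) fell in tumors in place of 3, and the Irf7 log2 fold change there was -0.01. Raw array medians of 88.4 to 109.0 lay close to the stand-in medians of 82.6 to 98.8, so dim genes such as Ifit1, Oas1a and, in tumors, Oas2 were not measurable as levels.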
